A study of Homo sapiens with 29 samples.

Results

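The first drug withdrawal of an intermittent dosing schedule was described from 6 of the 29 libraries of polyadenylated RNA in the series. The members were defined by their labels, and were chosen with earlier results of these data known. They were 3 libraries taken at day 14, after 7 days in LGX818 at 500 nM and then 7 days in DMSO. The other 3 were taken at day 7, on LGX818 at the same dose, called week 1 here. LGX818 (encorafenib) is an inhibitor of the BRAF kinase. Every cell in these groups was WM239A, a human metastatic melanoma line, overexpressing BRAF-V600E, the mutant kinase of many melanomas, so the on-drug controls carried the added BRAF too. A further 4 groups of 3 libraries, all overexpressing BRAF-V600E, served for comparison: cells with no drug at day 0 (untreated), cells kept on 500 nM LGX818 to day 14 (drug kept), and both groups of the second cycle, back on drug at day 21 and off drug again at day 28. The labels name neither the promoter of the added BRAF nor whether the line is 1 clone. Cells kept free of drug until day 14 were not analysed here, so a difference between off-drug and untreated cells holds 14 days in culture as well as 7 days of drug, and these cannot be told apart. Nothing in the labels tells whether replicate libraries were grown as separate cultures. The p-values therefore rest on the scatter among these libraries, which may be technical.

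Mutant BRAF signals through MEK to the kinase ERK, which drives transcription factors of the ETS, AP-1 and EGR families and, through them, its own inhibitors, the DUSP phosphatases and the SPRY and SPRED proteins. Melanoma cells depend on this pathway for cyclin D1 and entry into the cell cycle, and they lose or gain pigment genes under the control of MITF as its activity changes. Intermittent dosing is studied in this field because some melanomas that tolerate a BRAF inhibitor grow poorly when it is removed, which is called drug addiction.

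Week 1 libraries held 26874857 to 35804978 counts and off-drug libraries 26060113 to 31372653 counts (lowest to highest of 3). Mitochondrial transcripts took 12.7 ± 0.583% of the counts off drug and 10.3 ± 0.857% at week 1, and the 10 largest genes took 14.5 ± 0.518% and 16.0 ± 0.462%. Each of these shares differed without overlap (exact two-sided permutation p = 0.1, the smallest that 3 libraries against 3 can give); their part in the results was not tested. Off-drug replicate 3 stood apart from replicates 1 and 2, with a replicate chi-square per gene of 20.0 and 21.4. Over 11024 genes its deviation from the other two correlated with exonic length (Pearson r = 0.496 across genes, which share these libraries), against -0.00636 for replicate 1 minus replicate 2 and -0.0453 for the withdrawal change itself. Without that library, and without the libraries of other groups that stood apart, the numbers of all genes called in each comparison changed by less than 1.5 times. Among the list counts of the first withdrawal, small ones changed by more. Ribosome biogenesis rises went from 1 to 3 and ATF4 target rises from 1 to 2 without all the libraries that stood apart. Without off-drug replicate 3 alone immune marker rises went from 2 to 1 and ribosome biogenesis rises from 1 to 2. Immune marker rises also went to 1 without off-drug replicate 2, without week 1 replicate 3 and with no filter on low counts.

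Of 20494 genes tested with edgeR's quasi-likelihood test at an adjusted p of 0.05, 5671 rose on the first withdrawal (27.7%) and 5495 fell (26.8%). Those that moved at least 2-fold numbered 3023 higher (14.8%) and 1827 lower (8.91%). The 2 groups of libraries did not overlap for 61.3% of genes, and the median log2 change over all genes was -0.01. Changes below are off drug minus week 1, in log2 units, and levels are counts-per-million (CPM) of each library's TMM-scaled total, given for replicates 1, 2 and 3 in that order.

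BRAF itself, counted over the added and the endogenous gene, which cannot be told apart in these counts, rose on withdrawal. The gene (GRCh38 chr7:140719327-140924928, GENCODE 29) stood at 803, 757 and 805 CPM at week 1 and at 3236, 3169.9 and 3289 CPM off drug. All off-drug libraries lay far above all week 1 libraries, a 4.10-fold rise (log2 change 2.04, SE 0.08, adjusted p = 1.17e-19). Untreated cells held 895 ± 7.17 CPM (SD, n = 3) and cells kept on drug 1082 ± 48.5 CPM, itself 1.37-fold above week 1 (adjusted p = 2.28e-05). Of the 13 RAS, RAF, MEK and ERK kinase pathway genes listed, 2 rose and 6 fell, with a median of -0.20. The other riser was MAP2K1, which encodes the MEK1 kinase downstream of BRAF (log2 change 0.72). The falls were small except that of KSR1, a scaffold of the RAF and MEK kinases (log2 change -1.33), and included NRAS (-0.38).

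The inhibitors that ERK induces against itself rose almost throughout: 13 of 14 rose, none fell, and the median log2 change was 1.56. DUSP6, the phosphatase that dephosphorylates ERK in the cytoplasm (chr12:89347232-89353271), stood at 60.9, 64.9 and 66.1 CPM at week 1 and at 639, 659.8 and 675 CPM off drug. The off-drug libraries were all about 10 times the week 1 libraries and all above the untreated mean of 421 CPM (log2 change 3.36, SE 0.07, adjusted p = 3.66e-26). DUSP5, the nuclear ERK phosphatase, went from 8.86, 9.20 and 7.47 CPM to 131, 132 and 127 CPM, again with no overlap and above untreated cells at 38.9 CPM (log2 change 3.93, SE 0.10, adjusted p = 8.39e-24). SPRY4, which restrains signaling from receptors to RAF, went from 113, 112 and 105 CPM to 824, 884 and 1034 CPM, a rise of 8.29-fold that left it under the untreated level of 1348 CPM. Smaller rises included DUSP4 (1.88), SPRY2 (1.62), SPRED1 (1.59), SPRED2 (1.55) and ERRFI1, an inhibitor of the EGF receptor (1.31). LZTR1, an adaptor for RAS degradation, did not pass the test (-0.07).

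**Figure D1:**
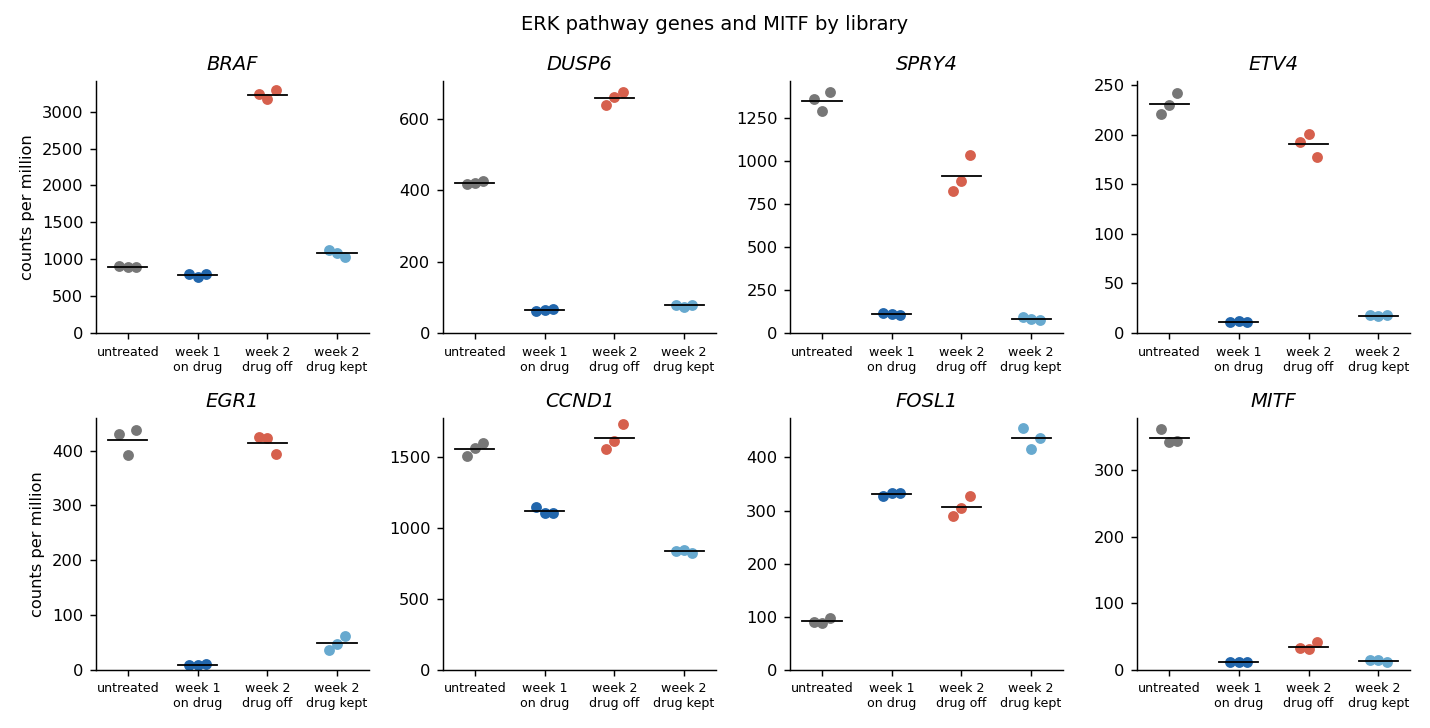
CPM in each library (points) with group means (lines) for BRAF, 6 ERK pathway genes and MITF in untreated cells, at week 1 on drug, at week 2 with drug off and at week 2 with drug kept; each vertical axis starts at 0. BRAF off drug (means 3232 against 788 CPM at week 1) lies above all other groups shown, EGR1 reaches the untreated level, and MITF (34.7 CPM) stays far below it (349 CPM).

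Transcription factors that respond to ERK split into 14 that rose and 6 that fell of 23, with a median of 1.02. EGR1, an immediate early zinc-finger factor, stood at 9.10, 8.74 and 9.84 CPM at week 1 and at 425, 424 and 394 CPM off drug. All off-drug libraries exceeded all week 1 libraries and lay among the untreated libraries at 429, 391 and 438 CPM (log2 change 5.49, SE 0.14, adjusted p = 2.4e-24). Against untreated cells its log2 difference was -0.02 with an SE of 0.11 (adjusted p = 0.902). Upstream sequences were sought for DUSP6, ETV4, EGR1 and SPRY4. They had the lowest adjusted p among the ERK-list genes that were followed throughout or were among the largest changes. EGR1 is the classic target of ERK through serum response factor, which binds CArG boxes. The 250 bases before the RefSeq start (GRCh38.p14, chr5:138465229-138465478, plus strand) are written 5′ to 3′ with the CArG boxes in capitals.
EGR1: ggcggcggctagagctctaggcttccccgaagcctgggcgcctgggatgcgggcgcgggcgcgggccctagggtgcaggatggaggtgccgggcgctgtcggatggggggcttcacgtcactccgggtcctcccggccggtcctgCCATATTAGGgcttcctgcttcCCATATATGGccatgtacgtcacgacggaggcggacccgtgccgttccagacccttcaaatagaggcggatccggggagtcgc
The search found CArG boxes at 105 to 96 and at 83 to 74 bases before the start, each read on both strands, and none of the other 4 motifs searched. Over the same 250 bases of 35116 RefSeq promoters, 1.16% held a CArG box on either strand, 16.5% CGGAAG, 1.65% TGACGTCA, 6.57% TGANTCA and 6.35% CACGTG. The upstream windows of DUSP6 and SPRY4 overlap annotated exons and are not printed, and no promoter entry was found for ETV4.

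The other EGR factors rose too, but their relation to untreated cells differed. EGR3 went from 1.81, 1.64 and 1.65 CPM to 114, 118 and 149 CPM, near the 95.5 CPM of untreated cells. EGR2 went from 3.89, 4.13 and 4.54 CPM to 117, 112 and 104 CPM, 25.1-fold above the 4.43 CPM of untreated cells (log2 difference 4.65, SE 0.11). ETV4, an ETS factor of the PEA3 family, went from 10.6, 12.5 and 10.8 CPM to 192, 201 and 177 CPM (log2 change 4.07, SE 0.10, adjusted p = 9.96e-25), while its relatives ETV5 (1.76) and ETV1 (1.12) rose less. FOSB (2.84), MAFF (2.42), FOS (2.23) and IER3, an early response gene of cell survival (2.88), rose as well. Of the 6 that fell, JUN, an AP-1 subunit, went from 227, 227 and 219 CPM to 77.5, 85 and 72.3 CPM, with 9.02 CPM in untreated cells. ATF3 (-1.17), FOSL2 (-1.14), KLF4 (-0.84), KLF6 (-0.80) and MYC (-0.78) fell with it, and MYC and KLF6 ended below untreated cells, the others above. FOSL1, an AP-1 member often read as an ERK output, was at 327, 333 and 332 CPM at week 1 and 290.3, 305 and 327 CPM off drug, which overlapped through replicate 3 (log2 change -0.11, adjusted p = 0.287).

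Of 20 other genes induced by ERK, 16 rose and 1 fell, with a median of 1.18. LIF, a cytokine of the interleukin 6 family, went from 35.3, 36.2 and 36.3 CPM to 812, 851 and 921 CPM, which was also above untreated cells at 136 CPM (log2 change 4.58, SE 0.08, adjusted p = 1.94e-27). UPP1, the uridine phosphorylase (2.93), SH2B3, an adaptor of cytokine signaling (2.91), PHLDA1 (2.70) and HMGA1, an architectural chromatin protein (2.12), rose too. CCND1, encoding cyclin D1, was at 1144, 1102 and 1107 CPM on drug and at 1556, 1612 and 1729.8 CPM off drug. These did not overlap, but the rise was only 1.46-fold, beside 1553 CPM in untreated cells (log2 change 0.55, SE 0.06, adjusted p = 3.65e-09). EPHA2, an ephrin receptor, was the member that fell (-0.72).

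Cell-cycle genes fell while the ERK outputs rose. Of 20 genes of DNA replication and the G1/S transition, none rose and 18 fell (median -0.62), and of 20 genes of mitosis and the spindle all 20 fell (median -0.89). CCNA2, cyclin A2 of S and G2 phase, stood at 31.9, 31.8 and 37.4 CPM at week 1 and at 13, 11.5 and 14.7 CPM off drug, all below (log2 change -1.37, SE 0.10, adjusted p = 2.28e-13). KIF20A, a kinesin of cytokinesis, went from 60.7, 62.2 and 63.4 CPM to 25.1, 24.6 and 30.2 CPM, and FOXM1, the factor that drives the G2/M program, from 98.6, 107 and 103 CPM to 43.9, 46.9 and 54.8 CPM. In each case all off-drug libraries lay below all week 1 libraries; in bulk RNA, fewer dividing cells and less RNA per cell cannot be told apart. TYMS, the thymidylate synthase (-1.01), UHRF1, which maintains DNA methylation (-1.01), and MCM6, a subunit of the replicative helicase (-0.84), led the replication genes. CCNE1 (0.21, adjusted p = 0.171) and CDC6 (-0.12, adjusted p = 0.174) did not pass the test. MKI67, the Ki-67 proliferation marker with a long transcript, was at 124, 117 and 126 CPM at week 1 and 64.1, 69.6 and 107 CPM off drug. Its replicate 3, the library that stood apart, was the highest off-drug value, and the change passed with all libraries (log2 change -0.60, adjusted p = 0.0142) but not without off-drug replicate 1 (adjusted p = 0.0911) or replicate 2 (0.0529).

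Cells kept on drug for the same week went the other way. From week 1 to week 2 on drug, 13 of the 20 replication genes rose and none fell, against 16.0% of all genes higher and 13.5% lower, and all 20 mitosis genes rose, with medians of 0.34 and 0.74. This comparison shares the week 1 libraries with the withdrawal, so the difference of the changes was tested as off drug against drug kept at week 2, where 27.3% of all genes were higher and 27.9% lower. There 19 of the 20 replication genes and all 20 mitosis genes were lower off drug, with medians of -0.91 and -1.62. TOP2A, the topoisomerase of dividing cells, was at 84.5, 90.8 and 118 CPM off drug and 395, 372 and 329 CPM with drug kept, and week 1 lay between them at 195 CPM. Untreated cells stood above the off-drug cells as well: 19 of 20 replication genes and all 20 mitosis genes were lower off drug than in untreated cells, where 28.8% of all genes were, with medians of -1.45 and -1.56.

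**Figure D2:**
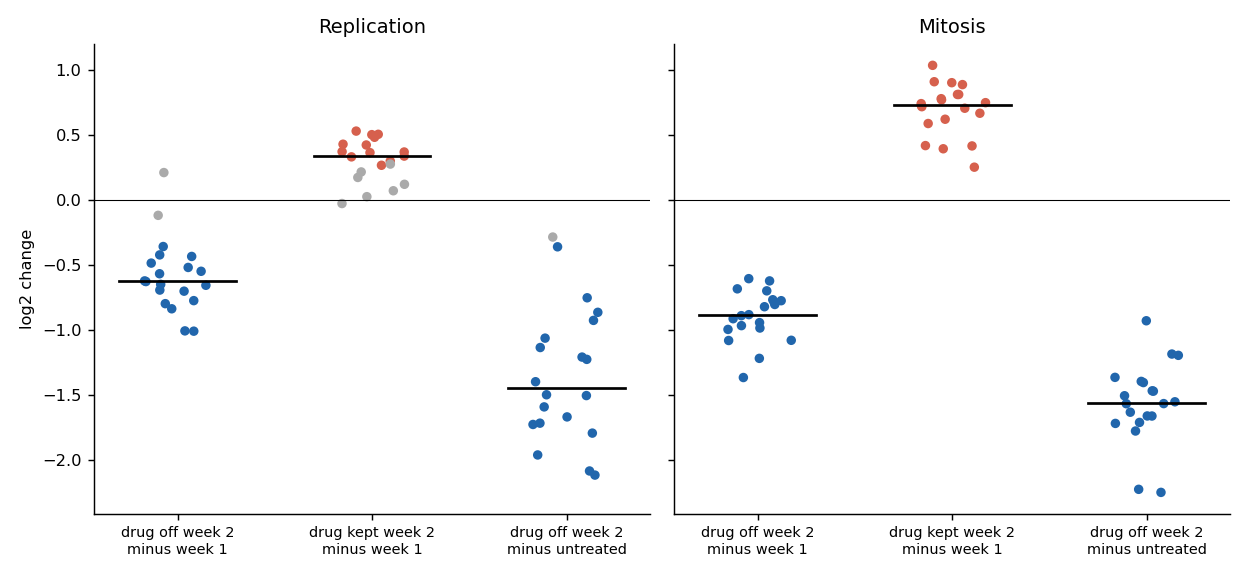
Log2 changes of the 20 replication and the 20 mitosis genes (points; red higher and blue lower at an adjusted p under 0.05, grey not passing; black lines medians) with drug off from week 1 to week 2, with drug kept over the same week, and off drug against untreated cells. The medians with drug off (-0.62 and -0.89) and with drug kept (0.34 and 0.74) lie on opposite sides of 0.

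Of 13 tested genes of the D and E cyclins, their kinases and inhibitors (14 listed), 4 rose and 7 fell. CDKN1A, the p21 inhibitor of cyclin-dependent kinases, was at 718, 783 and 728 CPM at week 1 and 983, 1029 and 873 CPM off drug, a small rise without overlap (log2 change 0.37, SE 0.07, adjusted p = 4.41e-05) to 3.05 times the untreated level. CDK2 rose 2.51-fold and CCND3 by 0.82 (log2), while CDKN2C, the p18 inhibitor, fell (log2 change -1.24), as did CCND2 (-1.62). The p53 targets split, with 7 rises and 10 falls of 18. GDF15, a secreted stress cytokine, rose (1.78), as did PMAIP1, the death-promoting NOXA protein (1.57). BTG2, an antiproliferative gene, fell from 30.7, 30.0 and 28.3 CPM to 4.23, 4.29 and 4.81 CPM, and BBC3, the death-promoting PUMA protein (-1.59), and MDM2, the inhibitor of p53 (-0.53), fell too. Among 10 tested genes of the BCL2 family, the survival genes BCL2A1 (1.94) and MCL1 (1.29) rose, and 4 fell, including the death-promoting BMF (-1.77).

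Most pigment genes were lower after the first withdrawal. Of 19 tested genes of the melanocyte lineage (20 listed; KIT did not pass the filter on low counts), 5 rose and 11 fell, with a median of -0.51. In cells kept on drug 4 rose and 10 fell, with a median of -0.95, and off drug against drug kept at week 2, 11 were higher and 4 lower, with a median of 0.59. MITF, the lineage's main transcription factor, stood at 11.6, 11.5 and 11.1 CPM at week 1 and at 32.5, 30.5 and 41.2 CPM off drug. The groups did not overlap, a 3.05-fold rise (log2 change 1.61, SE 0.13, adjusted p = 4.03e-12), but untreated cells held 349 CPM, far more than off-drug cells (log2 difference -3.33). TYR, the enzyme that starts melanin synthesis, fell over the same week from 132, 135 and 123 CPM to 61.4, 57.8 and 60.2 CPM (log2 change -1.12, SE 0.10, adjusted p = 1.17e-10), and TYRP1, its relative, from 10.2, 9.58 and 9.74 CPM to 0.587, 0.787 and 0.766 CPM. The melanosome proteins PMEL (-1.18) and MLANA (-1.23) and the lineage factor PAX3 (-1.28) fell, while MC1R, the melanocortin receptor (1.84), and RAB27A, which moves melanosomes (1.76), rose. In cells kept on drug PMEL went much lower, to a mean of 2.83 CPM, and off-drug cells lay above them (log2 difference 3.81, adjusted p = 2.83e-18). SOX10, which specifies the lineage, was at 319, 351 and 357 CPM off drug against 405, 438 and 408 CPM; its small fall (-0.28) was lost without week 1 replicate 2 (adjusted p = 0.0545) or off-drug replicate 1 (0.0678). The 8 defining melanocyte markers summed to between 504 and 543 CPM off drug, 744 and 797 at week 1 and 2251 and 2345 in untreated cells, and none was at 0. Of 14 neural crest genes 6 rose and 7 fell: RXRG, a retinoid receptor, went from 1.39, 1.85 and 2.14 CPM to 27.5, 27.7 and 25.5 CPM, SOX9 rose (1.75), and FOXD3 (-3.07) and L1CAM, an adhesion molecule (-2.76), fell.

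Receptor tyrosine kinases shifted in both directions, with 10 rises and 6 falls among 18 tested of 19 listed. FGFR1, a receptor of fibroblast growth factors, stood at 23.6, 25 and 24.4 CPM at week 1 and at 466, 508 and 468 CPM off drug. The groups were 19.7-fold apart (log2 change 4.30, SE 0.09, adjusted p = 5.87e-26), while untreated cells held 31.1 CPM and cells kept on drug 33.2 CPM. MET, the receptor of hepatocyte growth factor (1.91), PDGFRB (2.16) and EGFR (2.25) rose, EGFR from a low level and by less than in cells kept on drug (3.93; off drug against drug kept -1.69, adjusted p = 3.94e-08). FGFR3 fell from 27.2, 31.9 and 24.8 CPM to 1.80, 1.29 and 1.57 CPM, and ERBB4 fell (-2.63). AXL, a receptor often raised in drug-tolerant melanoma, moved little, from 56.3, 58.5 and 58.8 CPM to 68.4, 72.9 and 72.5 CPM (log2 change 0.30, adjusted p = 0.0052), against 1.03 in cells kept on drug. Of 12 neurotrophin and neuronal adhesion genes 7 rose and 3 fell. Of 13 integrins 6 rose and 4 fell, with ITGB8 (2.85) and ITGB3 (2.60) among the rises.

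Contractile genes and many matrix genes fell on removal of the drug. Of 14 genes of smooth muscle and targets of serum response factor, none rose and 13 fell, with a median of -1.61, which is the same with MYL9 at its bound. CALD1, caldesmon of actin filaments, stood at 2563, 2328 and 2645 CPM at week 1 and at 287, 276 and 349 CPM off drug, beside 302 CPM in untreated cells (log2 change -3.05, SE 0.10, adjusted p = 4.8e-21). MYL9, a myosin light chain, was at 1.19, 1.90 and 1.74 CPM at week 1 and had no count in any off-drug library, at least 44.3-fold lower against a floor of 3 counts over the group. TAGLN, transgelin, fell as well (log2 change -2.67). Of 20 matrix genes 5 rose and 11 fell, with a median of -1.40. COL1A1, the main chain of type I collagen, went from 227, 226 and 218 CPM to 4.02, 6.04 and 3.24 CPM, a 50.3-fold fall, whereas cells kept on drug rose to 1027, 1063 and 1071 CPM. FBN1, fibrillin of elastic microfibrils, went from 355, 343 and 360.3 CPM to 8.22, 9.15 and 11.2 CPM, and COL5A2 fell (-4.88). Against these, COL6A3 rose from 15.7, 15.9 and 15.7 CPM to 329, 308 and 342 CPM, with LAMA4 (2.71) and COL6A1 (1.65). Of 10 fibroblast markers 3 rose and 6 fell, and their summed level went from between 306 and 314 CPM at week 1 to between 53.7 and 56.8 CPM off drug, beside 56.1 to 57.9 CPM in untreated cells. None was at 0 off drug, and PDPN and THY1 were at 0 at week 1. COL1A1 made up most of the week 1 sum. The similar sums off drug and in untreated cells were made up of different genes. FAP stood at 32.3, 27.9 and 31.1 CPM off drug, below the 52.9, 54.4 and 53.8 CPM of untreated cells. PDGFRB was at 15.76, 15.98 and 14.03 CPM off drug, while untreated cells held almost none.

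Of 15 targets of YAP and TEAD 5 rose and 10 fell. CYR61, a matricellular protein, went from 536, 509 and 550.1 CPM to 46, 43 and 45.6 CPM (log2 change -3.57, SE 0.08, adjusted p = 1.25e-25), and AJUBA, a scaffold of the same pathway, fell (-2.18). NT5E, the ectonucleotidase CD73 (1.25), and WWTR1, the cofactor TAZ (1.43), rose. The list of the invasive melanoma state held 6 rises and 12 falls of 20: TPM1 (-3.51) and LOXL2 (-3.32) fell, and SERPINE2, a protease inhibitor, rose from 5699, 5664 and 5425 CPM to 14731, 14551 and 13832 CPM, with WNT5A (1.41) and ZEB1 (1.92).

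The secreted proteases and their inhibitors moved in both directions, with 7 rises and 5 falls among 13 tested of 14 listed. MMP2, the gelatinase of connective tissue, stood at 969, 1003 and 901 CPM at week 1 and at 50.4, 58.6 and 50.5 CPM off drug (log2 change -4.17, SE 0.08, adjusted p = 9.72e-27). MMP10, a stromelysin, went from 0.0385, 0.289 and 0.197 CPM to 88.4, 82.4 and 65.4 CPM, and MMP3, its close relative, from 2.35, 3.75 and 2.96 CPM to 82.9, 82.1 and 64.2 CPM. The inhibitors moved apart: TIMP1 went from 253, 271 and 236 CPM to 7647, 7836 and 5491 CPM, and TIMP2 fell from 524, 526 and 495 CPM to 122, 126 and 129 CPM. Secreted inflammatory factors mostly rose, 11 up and 3 down among 16 tested of 20 listed, with a median of 1.14. AREG, a ligand of the EGF receptor, went from 0.308, 0.375 and 0.296 CPM to 110.1, 107 and 84 CPM (log2 change 8.23, SE 0.23, adjusted p = 2.69e-23), while untreated cells (0.439 CPM) and cells kept on drug (0.306 CPM) held almost none. IL1B, interleukin 1 beta, went from 0.231, 0.173 and 0.0987 CPM to 23, 19.2 and 18.5 CPM. VGF, a neuropeptide precursor, went from 82.4, 87.1 and 77.1 CPM to 1851, 2554 and 1904 CPM, while IL6 fell from 2.08, 1.88 and 2.80 CPM to 0.168, 0.179 and 0.174 CPM. VEGFA, the vascular growth factor, fell by less (-0.46). Of 11 feedback genes of NF-kappa-B 2 rose and 5 fell, or 3 fell without week 1 replicate 3. Of all genes 27.7% rose and 26.8% fell. In the WNT and TGF-beta feedback list 7 of 15 rose and 6 fell; INHBA, the activin A subunit, went from 10.6, 8.80 and 10.4 CPM to 272, 262 and 291 CPM, and DKK1 (-4.29), ID3 (-3.74) and SMAD6 (-3.27) fell.

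Antigen presentation genes rose. Of 14 MHC class I genes 13 rose and none fell (median 0.83), and all 7 tested MHC class II genes rose, of 10 listed. NLRC5, the activator of class I transcription, went from 3.47, 4.01 and 3.16 CPM to 31, 22.5 and 24.4 CPM, and HLA-B from 37.4, 38.6 and 34.7 CPM to 193, 145 and 112 CPM, with the highest off-drug value in replicate 1 in both. CD74, the class II invariant chain, went from 6.09, 5.97 and 5.76 CPM to 48.9, 42.3 and 37.7 CPM, beside 44.2 CPM in untreated cells, and CIITA, the class II activator, rose (2.41). In cells kept on drug 12 of the 14 class I genes rose as well, with a median of 0.70, and 5 of the 7 class II genes, with a median of 1.06; none of either fell. Off drug against drug kept at week 2, 7 class I genes were higher and 3 lower, and 6 class II genes were higher and none lower. Of 22 genes induced by interferon 10 rose and 4 fell, MX2 among the falls (-1.78). HLA genes are polymorphic and similar to each other, so their counts are uncertain.

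**Figure D3:**
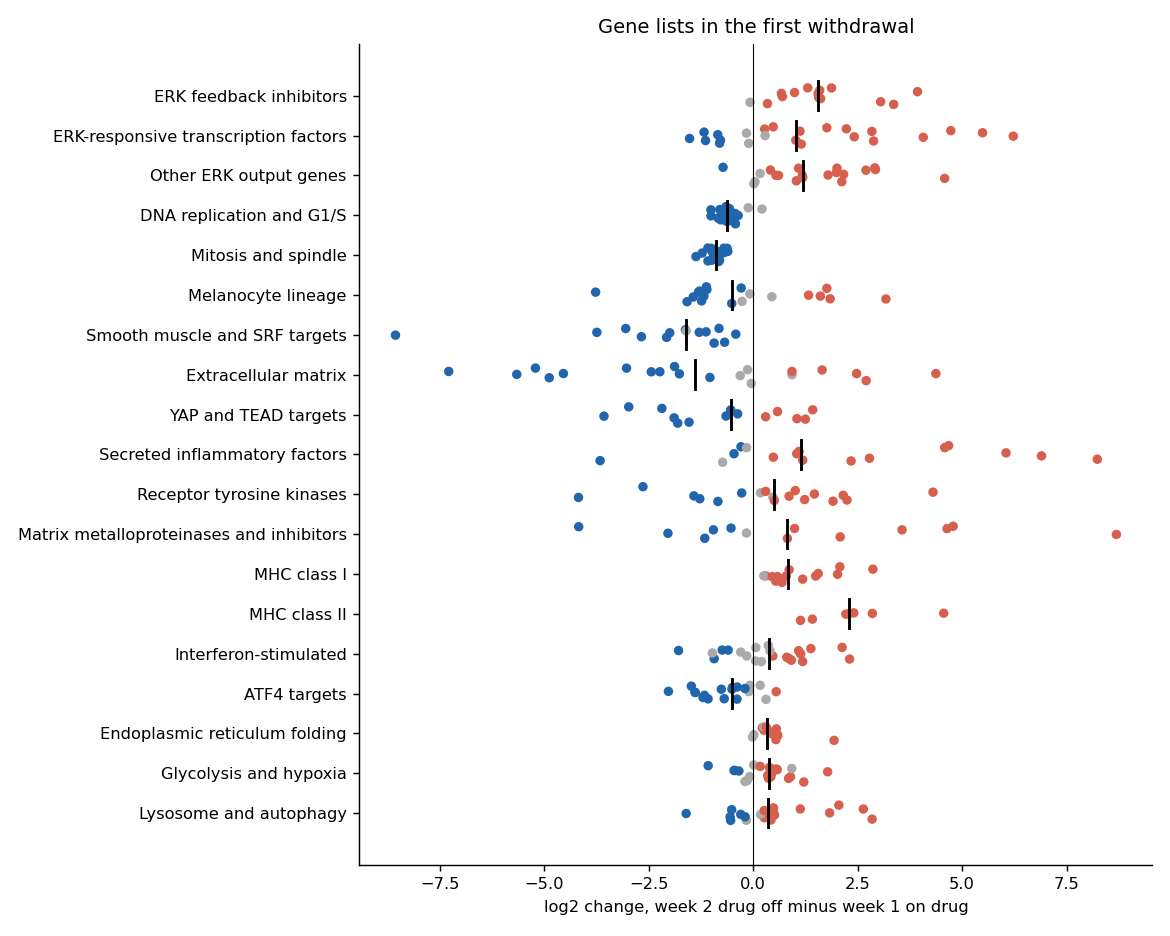
Log2 change in the first withdrawal of each tested member of 19 gene lists (points; red rose and blue fell at an adjusted p under 0.05, grey did not pass; black bars are list medians, vertical line 0). The medians run from 2.29 for MHC class II genes and 1.56 for ERK feedback inhibitors down to -1.61 for smooth muscle genes.

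Stress and metabolic lists moved in both directions. Of 19 tested targets of ATF4, the amino acid stress factor, 1 rose and 14 fell (median -0.51), led by DDIT4, an inhibitor of mTOR (-2.02), and the serine synthesis enzymes PHGDH (-1.39) and PSAT1 (-1.39); in cells kept on drug 13 of them fell too. Of 12 folding genes of the endoplasmic reticulum 9 rose and none fell, with DNAJB9 the only one past 2-fold (1.94). The lysosome list held 12 rises and 6 falls of 20: cathepsin L, CTSL, went from 163, 169 and 165 CPM to 1163, 1006 and 923 CPM and NPC2, a cholesterol carrier, from 116, 131 and 114 CPM to 957, 917 and 723 CPM, while cathepsin D, CTSD, fell (-1.60). Glycolysis and hypoxia genes rose in 13 of 22 and fell in 4, with PKM, the pyruvate kinase, up (0.90) and the glucose carrier SLC2A1 down (-1.07). The respiratory chain list held 10 rises and 1 fall of 22 with a median of only 0.21, cholesterol synthesis 8 and 7 of 21, fatty acid synthesis 5 and 5 of 11, and ribosome biogenesis 1 and 11 of 20. The 10 respiratory rises became 5 without week 1 replicate 1 and 6 without off-drug replicate 1 or 2, and the 11 ribosome falls became 7 with RLE factors in place of TMM. The single ribosome rise became 4 with DESeq2 or RLE factors, 3 with only the groups compared and 2 with no filter or without week 1 replicate 1 or 2 or off-drug replicate 2. The single ATF4 rise became 2 with DESeq2, RLE factors, no filter, only the groups compared or without off-drug replicate 1. PPARGC1A, the mitochondrial coactivator under MITF, rose from 1.97, 1.53 and 1.78 CPM to 5.37, 4.0 and 7.03 CPM and remained far under the 63.3 CPM of untreated cells. Heat shock proteins split into 6 rises and 5 falls of 13.

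The 12 largest rises, among genes of at least 5 CPM on average whose libraries did not overlap, were of genes almost without counts in both week 1 and untreated cells. LCE1F, a late cornified envelope protein of skin, had no count in any week 1 library and stood at 46.1, 58.2 and 43.7 CPM off drug, at least 1500.4-fold higher against a floor of 3 counts over the group. LCN1, the tear lipocalin, was at least 709.5-fold higher at 30.1, 26.2 and 15.1 CPM, and TBX21, the T-bet factor of T cells, at least 334-fold higher at 11, 12.1 and 9.96 CPM. All 3 were without counts in every week 1 library, and TBX21 in every untreated library too. IL36B, an interleukin 1 family cytokine of epithelia, had 2 counts over the week 1 group and stood at 123, 114 and 106 CPM off drug, a count ratio of 5170.1 (95% counting interval 1431 to 42697). IL36RN, the antagonist of its receptor, had 1 count and stood at 47.3, 49.7 and 42.5 CPM, a ratio of 4223 (95% counting interval 758 to 166854). PAEP, a secreted lipocalin known as glycodelin, went from 0, 0.173 and 0 CPM to 142, 151 and 111 CPM. The remaining rises were SMOC1, PRR9, CD52, KPRP, KRT75 and KRT6A, with off-drug means from 15.5 to 64.9 CPM. Keratin and late cornified envelope genes have near-identical copies, so single members are uncertain.

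The 12 largest falls were, by contrast, of genes expressed on drug. CD36, a fatty acid carrier, stood at 166, 158 and 166 CPM at week 1 and at 0.545, 0.250 and 0.731 CPM off drug, a 318-fold fall (log2 change -8.31, SE 0.21, adjusted p = 2.45e-24). HTR2B, a serotonin receptor, went from 151, 150.5 and 146 CPM to 0.545, 0.393 and 0.592 CPM, far under the 58.9 CPM of untreated cells. CRYAB, the small heat shock protein alpha-B crystallin, was at 2634, 2836 and 2549 CPM at week 1 and at 26.9, 24.3 and 20.9 CPM off drug. OLFML2A, a matrix glycoprotein, went from 1267, 1306 and 1154 CPM to 9.18, 10.3 and 9.75 CPM. COL3A1, NPPB, NUPR1, SLITRK6, EDIL3, PRELP, COL1A1 and FBN1 completed the set, with log2 changes between -7.28 and -5.21. Every one of the 12 except HTR2B was under 6 CPM in untreated cells.

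**Figure D4:**
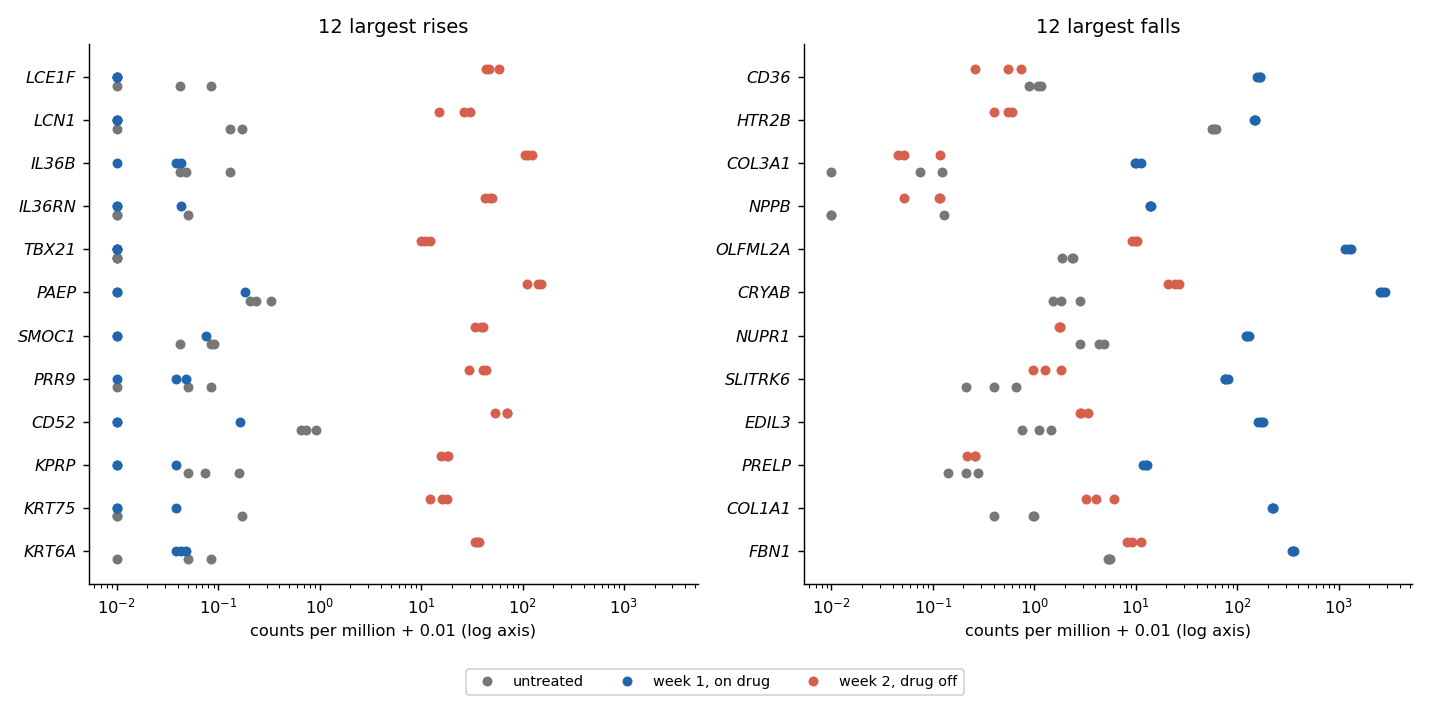
CPM plus 0.01 on a log axis in each untreated, week 1 and off-drug library for the 12 largest rises (left) and the 12 largest falls (right) of the first withdrawal. For the rises, week 1 and untreated libraries lie below 1 CPM and off-drug libraries at 9.96 CPM or above; for the falls, week 1 libraries lie above all off-drug libraries.

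Since some of these genes mark other cell types, defining markers were read as well. Of the 8 keratinocyte markers, CDH1, EPCAM and DSG3 had no count in any off-drug library, KRT1 and KRT5 rose and KRT14 fell, and the summed level of the list was 13.9 to 21.3 CPM off drug and 20.7 to 24.6 CPM at week 1. TP63 (log2 change -1.18) and KRT10 (-0.47) passed the test, but TP63 was lost without off-drug replicate 1 or 2 or week 1 replicate 1 or 2 (adjusted p up to 0.141), and KRT10 without off-drug replicate 3 (0.0953) or week 1 replicate 2 (0.0686). Of the 8 immune markers, TYROBP and CD3E were at 0 off drug, and the sum went from between 0.230 and 0.894 CPM to between 5.45 and 5.92 CPM, with LYZ, lysozyme, at 4.48, 4.65 and 5.01 CPM. Of the 7 endothelial markers, CDH5 and CLDN5 were at 0 off drug, and the sum went from between 1.15 and 1.65 CPM to between 18.3 and 20.9 CPM, with KDR, a receptor of vascular growth factor, at 12.4, 14.1 and 16.2 CPM. In untreated cells the sum was 10.1 to 15.7 CPM for keratinocyte markers and 2.08 to 3.08 CPM for immune markers. The untreated endothelial sum was 12.1 to 13.2 CPM, with KDR at 10.28, 8.43 and 10.03 CPM. Against untreated cells 4 of the 5 tested endothelial markers were higher off drug and 1 was lower. Among the higher, PECAM1 stood at 3.48, 2.4 and 2.47 CPM off drug and at 0, 0 and 0.189 CPM in untreated cells. The part of other cell types in the result was not tested.

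Off-drug cells were not the untreated cells again. Against untreated cells 6388 genes were higher off drug (31.2%) and 5905 lower (28.8%), over the different days in culture named above. The largest differences upward were of genes with 0 counts (IL36RN 1 count) over the untreated libraries: TRIM54, a muscle ubiquitin ligase, was at least 905-fold higher off drug at 35.7, 37.3 and 26.7 CPM, CMKLR1, the chemerin receptor, at least 766-fold at 29, 27.1 and 27.8 CPM and KCNK1, a potassium channel, at least 287-fold at 12.4, 10.4 and 8.88 CPM, with IL36RN and TBX21 already described. Downward, FABP7, the brain fatty acid binding protein, stood at 9.93, 12.6 and 10.8 CPM off drug and 642, 708 and 687 CPM in untreated cells. PLN (-9.08), POSTN (-7.43), HTR2B (-6.84) and TUBB4A (-6.41) were lower by similar or larger log2 differences. By list, all 16 tested secreted inflammatory factors and all 14 MHC class I genes were higher than in untreated cells, with medians of 3.22 and 1.55, and 18 of 21 cholesterol synthesis genes were lower, with a median of -0.91.

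Over the same week, 6055 genes (29.5%) changed in cells kept on drug. The largest rises there were in OLFML2B (4.06), EGFR (3.93), ADAMTS2 (3.77), FAM105A (3.29) and ADAMTS12 (3.07), for which the withdrawal gave 0.63, 2.25, 0.72, 0.64 and 0.83. The withdrawal change of ADAMTS12 was lost without off-drug replicate 3 (adjusted p = 0.142). The largest falls with drug kept were in PMEL (-4.98), APOE (-3.31), MLANA (-2.74), SOX8 (-2.29) and CRYAB (-2.27), for which the withdrawal gave -1.18, -0.94, -1.23, -0.19 and -6.80; the value of SOX8 did not pass the test. Both columns of values share the week 1 libraries.

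The second withdrawal, from week 3 on drug to week 4 off drug, used none of the libraries of the first. In the deposited table the columns of the week 3 intermittent libraries are named as off drug, whereas the sample labels give on drug, which was used here. DUSP6 stood at 116, 101 and 109 CPM in them. It moved 4741 genes higher (23.1%) and 4578 lower (22.3%). The test of the difference found 1557 genes whose second change lay above the first (7.60%) and 1947 below it (9.50%). For BRAF and SPRY4 no difference passed the test: the second minus the first change was -0.23 with an SE of 0.11 for BRAF (adjusted p = 0.153) and 0.18 with an SE of 0.12 for SPRY4 (0.374). DUSP6 rose by less the second time (2.49 against 3.36, adjusted p of the difference = 1.38e-08), and EGR1 by much less (1.35 against 5.49); its on-drug level at week 3 was 164, 152 and 160.1 CPM. None of the 20 mitosis genes differed between the 2 withdrawals by edgeR's test, and all 20 fell in the second as well. Of the 20 replication genes 16 fell and none rose in the second. For 5 of them the second change lay above the first and for none below, with a median difference of 0.23.

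Pigment genes differed between the withdrawals. In the second, 14 of the 19 melanocyte genes rose and 3 fell, and for 14 the second change lay above the first, 1 below, with a median difference of 1.40. TYR, which had fallen in the first withdrawal, went from 34.8, 30.9 and 50.9 CPM on drug to 122, 124 and 139 CPM off drug in the second (difference 2.85, SE 0.15, adjusted p = 1.04e-14). PMEL went from 7.35, 8.78 and 12 CPM to 120.2, 181 and 151 CPM and MLANA from 3.53, 3.11 and 7.98 CPM to 48.9, 60.8 and 61.3 CPM. MHC class I genes went the opposite way: for all 14 the second change lay below the first, with a median difference of -1.02, and in the second 5 rose and 4 fell. AXL rose in the first and fell in the second (-0.95; difference -1.25, adjusted p = 8.01e-09).

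**Figure D5:**
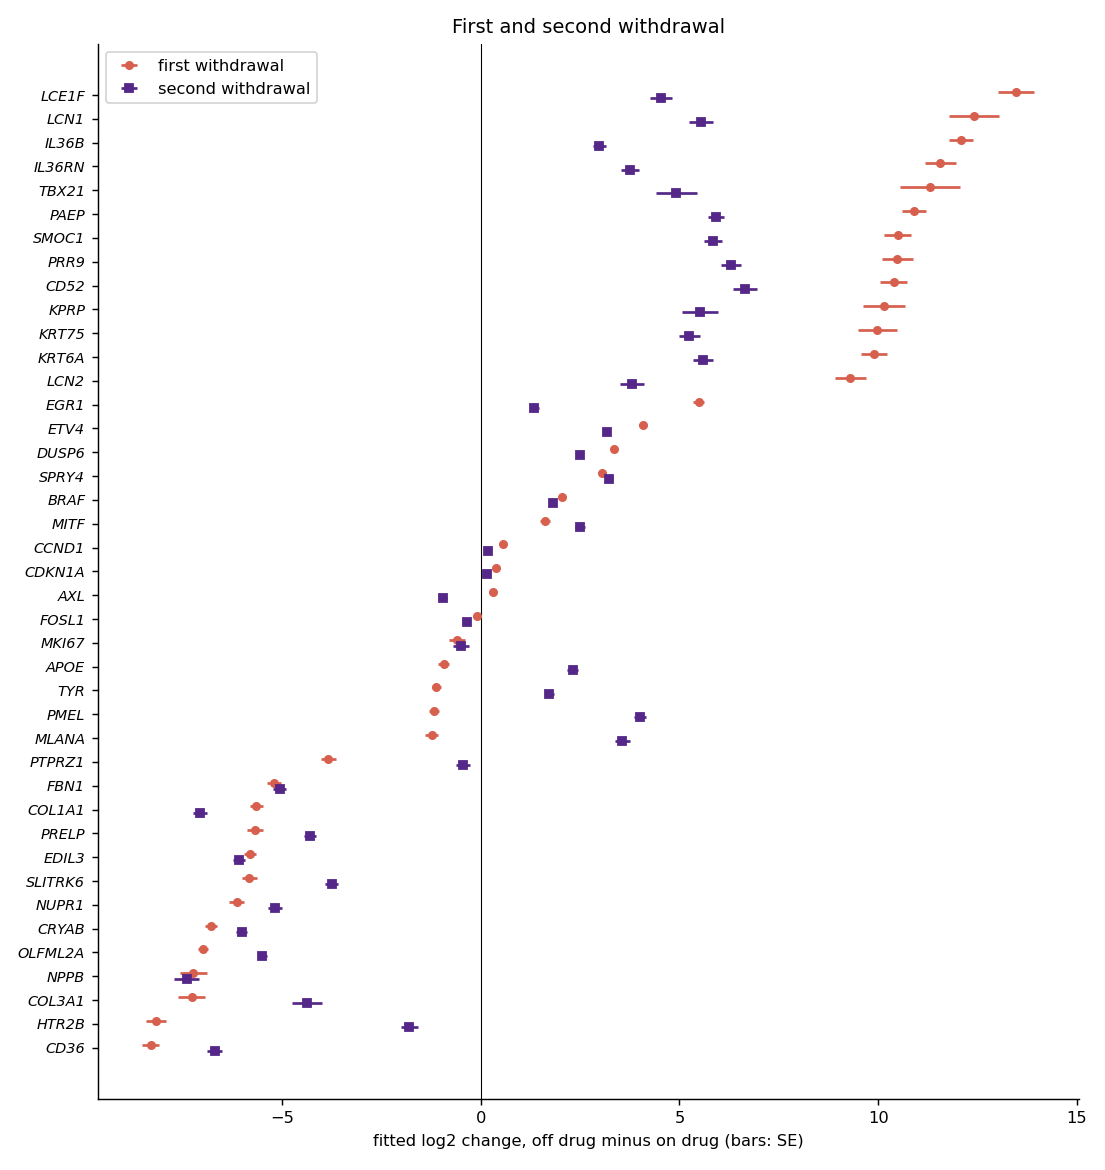
Fitted log2 changes (points) with SE (bars) in the first withdrawal (circles) and the second (squares). Genes are the 12 followed through every comparison, the largest rises and falls of the first withdrawal and those whose 2 changes differed most. The SE is the absolute log2 change over the square root of the test's F statistic. The changes of BRAF, SPRY4, FBN1 and EDIL3 nearly coincide, those of TYR, PMEL, MLANA and APOE lie on opposite sides of 0, and the fitted values of genes with 0 to 3 counts at week 1 depend on the prior count.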

How the data were processed

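Polyadenylated RNA of WM239A cells was sequenced from 29 libraries, and the 6 of the first withdrawal were analysed with 4 comparison groups. Per the submitters' processing notes, reads were handled with HISAT2 2.0.3, Trimmomatic 0.32, HTSeq 0.6.1 and SAMtools 0.1.18 on GRCh38; the annotation release and strand setting are not given in the sources used here, so overlapping and antisense genes cannot be told apart. The authors deposited raw read counts per gene. From these, edgeR 4.0.16 (R 4.3.3) gave TMM factors, filterByExpr kept 20494 of 60675 genes, and 1 quasi-likelihood fit of all 29 libraries in 10 groups tested 6 comparisons with Benjamini-Hochberg adjustment at 0.05. The common biological coefficient of variation was 0.0942. Printed CPM use TMM-scaled library totals. Each printed SE is the absolute log2 change over the square root of the quasi-likelihood F statistic, and is approximate where counts are few. Symbols came from the deposited table, and 20326 tested identifiers matched GENCODE 29. Intervals and floors (3 counts) cover counting error only.

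The members, 39 gene lists and tests were chosen with earlier results of these data known. Genes named were 12 followed throughout, the 12 largest rises and falls of at least 5 CPM without overlap, the 5 largest in each direction of the other comparisons, and up to 5 members of a list in its main direction with up to 2 against it. Outside that rule, chosen after their values were seen, were CCND3, CCNE1, CDC6, COL6A1, ERRFI1, ETV1, ETV5, FOS, FOSB, FOSL2, HMGA1, KLF4, KLF6, LZTR1, MAFF, MDM2, MYC, MYL9, SERPINE2, SMAD6, SOX10, SPRED1, SPRED2 and the cell type markers. Alternatives were DESeq2 1.42.0, RLE factors, no filter, only the groups compared, a replicate block and each library left out. The steps were tested on simulated data. Promoters are from RefSeq (GRCh38.p14). Some list members are not reported here by name.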

Additional observations from a re-analysis of the deposited data

Results flagged for a closer look

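The first and the second withdrawal share no libraries, and the test of the difference between them (edgeR's quasi-likelihood test of the second change minus the first) placed 1557 genes above and 1947 below the first change. Each value here is that difference on the log2 scale, for a gene named in the report or among the 5 largest differences in each direction, with an adjusted p under 0.05.

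Among the ERK outputs the second change lay below the first for EGR1 (-4.14), ETV4 (-0.91), DUSP6 (-0.87) and CCND1 (-0.37). EGR1 stood at 9.23 CPM on drug before the first withdrawal and at 159 CPM before the second. AXL rose in the first and fell in the second (-1.25).

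Pigment genes lay on the other side, with the second change above the first for PMEL (5.18), MLANA (4.79), TYR (2.85) and MITF (0.88). APOE, an apolipoprotein, likewise fell in the first withdrawal and rose in the second (3.25). PTPRZ1, a receptor phosphatase of glial cells, had a log2 change of -3.84 in the first and -0.45 in the second (difference 3.39).

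The genes that rose most in the first withdrawal had smaller fitted changes in the second: IL36B (-9.10), LCE1F (-8.93), IL36RN (-7.82), LCN1 (-6.88), TBX21 (-6.39), LCN2, a lipocalin of innate immunity (-5.50), PAEP (-4.99), KRT75 (-4.73), SMOC1 (-4.65), KPRP (-4.64), KRT6A (-4.30), PRR9 (-4.19) and CD52 (-3.73). These genes were picked for a large first change or a large difference, so a smaller second change is partly built into the choice. Most of these had 0 to 3 counts at week 1, so the fitted differences depend on the prior count and bound nothing. Their levels before the second withdrawal were higher than at week 1, for example 2.60, 4.54 and 3.25 CPM of IL36B and 0.403, 0.335 and 0.230 CPM of LCE1F. After it these 2 genes stood at 25.8, 30.8 and 25.6 CPM and 6.92, 9.86 and 6.10 CPM. Off-drug means were lower the second time for IL36B, LCE1F, IL36RN, TBX21, PAEP, SMOC1, CD52, KPRP and KRT6A. They were higher for LCN1 (23.8 and 39.1 CPM), KRT75 (15.5 and 32.8 CPM) and PRR9 (37.7 and 42.1 CPM). These differences in off-drug level were not tested.

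Of the genes that fell most, HTR2B (6.38), COL3A1 (2.90), SLITRK6 (2.07), CD36 (1.62), OLFML2A (1.49), PRELP (1.39), NUPR1 (0.97) and CRYAB (0.78) fell less the second time, and COL1A1 fell more (-1.41). They were picked for a large first fall, so a smaller second fall is partly built into the choice here too. Means on drug before the first and the second withdrawal were 149 and 8.25 CPM for HTR2B and 2673 and 970 CPM for CRYAB. They were also lower before the second for COL3A1, SLITRK6, CD36, OLFML2A and NUPR1. They were higher for PRELP (12.4 and 15.0 CPM) and COL1A1 (224 and 661 CPM). The highest off-drug means among these genes were 24.0 and 14.9 CPM, of CRYAB. The part of the starting level was not tested.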

How the results depend on the processing

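The counts of genes past the threshold in each comparison, in each direction, kept within 1.5 times of their reported values in 156 alternative values (DESeq2, RLE factors, no filter on low counts, only the groups compared, the replicate block, each library left out, and, chosen after seeing the data, without the 3 libraries that stood apart). With libraries left out, the first withdrawal gave 5022 to 5604 genes higher and 4974 to 5449 lower. Of 2578 values for 215 genes in the first withdrawal, 2563 kept their side of the threshold, 13 lost it, 2 gained it and 0 reversed. The losses were of ADAMTS12, KRT10, MKI67, SOX10 and TP63 when libraries were left out, and CDC6 gained it without off-drug replicate 3 (adjusted p = 0.0326). All 420 values of the 30 genes named in the other comparisons kept theirs. Of 936 counts of list members 26 moved by over 1.5 times, in small counts; the cause was not tested.

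No pairing by replicate number was seen: deviations of same-numbered week 1 and off-drug libraries correlated at -0.04, 0.05 and 0.03. With 3 libraries a group, such values cannot tell whether a number marks a shared culture or day. With the replicate block, 5611 genes rose and 5451 fell in the first withdrawal. With 3 libraries a group at this depth, levels under 1 CPM rest on few counts and their fold changes are imprecise.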

Other observations

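Genes that rose in the first withdrawal were seen side by side in 3 stretches of the genome. Their limits (GENCODE 29, GRCh38) were chosen after the values were seen, so they are described without a test, and a gene that passed the filter on low counts only through the off-drug libraries had to differ. On chromosome 1, from S100A10 to S100A1 (151982915 to 153632039), lies the epidermal differentiation complex, the cluster of cornified envelope and S100 genes of skin. Of its 64 protein-coding genes 31 were tested, of which 26 rose and 2 fell, where 27.7% of all genes rose and 26.8% fell. Their CPM summed to 967 at week 1, 1649 off drug and 439 in untreated cells, of which S100A6 held 276, 747 and 142. Some rises rested on few counts, such as 4 of TCHHL1 and 9 of LCE1B over the off-drug libraries. Most of the 26 genes that rose had 0 to 3 counts over the week 1 libraries. The share that rose can therefore not be read against that of all genes. The falls were of S100A10 (log2 change -0.64) and FLG (-3.23), and FLG stood at 52.9 CPM with drug kept. On chromosome 12, from KRT80 to KRT18 (52168996 to 52952901), lie the type II keratins and the type I keratin KRT18. Of the 27 protein-coding genes of the stretch 19 were tested, 16 rose and 2 fell. Their CPM summed to 48.1 at week 1, 244 off drug and 99.3 in untreated cells, of which KRT18 held 33, 96 and 86. With drug kept, KRT18 was at 92.6 CPM, KRT8 at 14.7 CPM (18.1 off drug) and KRT81 at 14.2 CPM (7.70 off drug). KRT79 and KRT6A were at 0.430 and 0.106 CPM with drug kept, and at 46.1 and 35.5 CPM off drug. Most of the 16 genes that rose in this stretch also had 0 to 3 counts over the week 1 libraries. On chromosome 2, from IL1A to PAX8 (112773915 to 113278950), all 6 tested of 11 protein-coding genes rose, among them IL1B, IL36B and IL36RN. The CPM of the 6 genes summed to 6.07 at week 1, 253 off drug and 3.01 in untreated cells. IL1RN, IL36RN and IL36B had 0, 1 and 2 counts over the week 1 libraries. Keratin 6 and late cornified envelope genes have near-identical copies, and how their shared reads were counted is not given in the sources used here.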
